A study of Homo sapiens with 6 samples.

Results

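HSD17B10, TRMT10C and KIAA0391 encode the proteins of human mitochondrial RNase P, and their RNA was followed through 6 RNA-seq libraries of renal cancer cells with and without knockdown of the zinc finger gene ZNF395. HSD17B10 was selected from these data because its level was higher than the control in all 4 knockdown libraries, and its 2 partners were then read beside it. KIAA0391 is the name in the deposited table for the gene now called PRORP. The members are 3 of 32357 genes in the table, and all 3 passed the expression filter that left 20144 genes for testing. The cells were 786-O and A-498, established lines from human clear cell renal cell carcinoma that lack a working VHL tumour suppressor. All cells were grown in RPMI medium with fetal bovine serum, transduced with a retroviral short hairpin vector packaged in HEK293T cells, and selected with puromycin. The controls (1 library in each line) carried a hairpin with no human target, and the knockdown cells carried hairpin 1 or hairpin 3 against ZNF395, 1 library per line and hairpin. Every group thus shares the vector type and the selection, and the labels do not say whether any was a single clone.

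Transfer RNAs of human mitochondria are cut out of long transcripts in which they punctuate the messenger and ribosomal RNAs. Mitochondrial RNase P makes the cut at the 5′ end of each tRNA, and it does so with protein alone: TRMT10C, a methyltransferase, and HSD17B10, a dehydrogenase, form a complex that holds and methylates the tRNA, and KIAA0391 is the metallonuclease that cleaves it. HSD17B10 has a separate catalytic role in the breakdown of isoleucine and of some steroids, and that activity is not needed for tRNA cleavage.

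Library totals ran from 77534125 to 99147218 counts, and RNA encoded by mitochondrial DNA took 5.13 to 8.21% of them. Levels are given as CPM, each count taken relative to its library total after TMM scaling. The ZNF395 level in 786-O was 96.3 CPM without and 24.7 and 13.5 CPM under hairpins 1 and 3, and in A-498 it was 67.9 CPM without and 14.5 and 14.3 CPM under them. Renal tubule markers were present in every library (PAX8 at 157 to 256 CPM, KRT8 at 589 to 1325 CPM). CA9 and NDUFA4L2, markers of clear cell carcinoma, were at or near 0 (0 to 1.68 and 0.0749 to 1.16 CPM). Summed over each list, endothelial markers reached at most 2.22 CPM, immune markers 0.411 CPM and fibroblast markers 6.18 CPM. The 5 HEK293-associated markers summed to 200 to 444 CPM, with NEFL at 200 to 398 CPM, NEFM at 0.107 to 0.740 CPM in 786-O and 44.1 to 45.2 CPM in A-498, and SOX2 at most at 0.761 CPM, while LIN28A and LIN28B stayed between 0 and 0.0499 CPM; the part of such cells in the results was not tested. With 1 library per line and construct there were no repeat cultures, and each p-value reflects how far these few libraries scatter around the fitted model. In bulk RNA, more cells with a transcript and more transcript per cell cannot be told apart.

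The 3 genes lie on different chromosomes. In GRCh38 (GENCODE annotation), HSD17B10 spans 53431258 to 53434373 on the minus strand of chromosome X, TRMT10C spans 101561862 to 101566446 on the plus strand of chromosome 3, and KIAA0391 spans 35121846 to 35277614 on the plus strand of chromosome 14. The start-site windows of the member with higher RNA and of the member with lower RNA in the knockdown libraries are shown because they can be set side by side for the letters GCCGGCG, described as the recognition sequence of ZNF395. They come from RefSeq (GRCh38.p14), hold 250 bases before the start and 30 bases from it, and read 5′ to 3′ along the gene's strand, with capitals for every motif match. The HSD17B10 window is chrX:53434347-53434626 (minus strand) and the TRMT10C window is chr3:101561618-101561897 (plus strand).
HSD17B10: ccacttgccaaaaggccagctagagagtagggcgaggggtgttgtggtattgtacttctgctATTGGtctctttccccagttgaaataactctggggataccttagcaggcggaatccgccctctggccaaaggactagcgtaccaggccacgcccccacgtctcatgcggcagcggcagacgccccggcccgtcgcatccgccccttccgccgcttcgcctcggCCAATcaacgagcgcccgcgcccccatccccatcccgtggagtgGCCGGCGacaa
TRMT10C: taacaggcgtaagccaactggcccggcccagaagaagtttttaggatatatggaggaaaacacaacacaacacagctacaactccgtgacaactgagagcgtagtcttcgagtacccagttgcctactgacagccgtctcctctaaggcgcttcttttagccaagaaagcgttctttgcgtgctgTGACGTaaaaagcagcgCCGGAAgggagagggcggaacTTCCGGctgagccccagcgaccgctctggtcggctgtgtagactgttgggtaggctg

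Both strands of each window were searched for GCCGGCG, for the NRF1 core TGCGCA, the ETS motif CCGGAA, the E-box CACGTG, the partial CRE TGACGT, the box CCAAT and the YY1 motif AAGATGG, none of which contains another. In HSD17B10, GCCGGCG began at base 20 counted from the start, and CCAAT matched on the minus strand 188 bases and on the plus strand 25 bases before it. In TRMT10C, CCGGAA began 48 bases before the start and matched again on the minus strand at 27 bases before it, and TGACGT began 65 bases before the start. Of 34943 RefSeq windows of this kind, 10.1% held GCCGGCG, 33.7% CCAAT, 16.5% CCGGAA, 7.76% TGACGT, 7.89% TGCGCA, 6.92% CACGTG and 5.19% AAGATGG. RefSeq lists a pair of starts for HSD17B10, and the window of the other one, shifted by a few bases, also held AAGATGG just inside its end. Of the windows at the KIAA0391 starts, 1 held no motif and the other held CCGGAA on the minus strand 238 bases before the start. These matches describe letters in the reference and carry no measurement of binding.

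HSD17B10, the dehydrogenase subunit, had between 1.88 and 2.49 times its control level in the knockdown libraries. The 786-O control had 35.5 CPM, hairpin 1 had 86.3 CPM and hairpin 3 had 88.5 CPM. The A-498 control had 22.7 CPM, and its hairpin 1 and hairpin 3 libraries had 43.8 and 42.7 CPM. Within each line the knockdown libraries lay far above the control and close to each other, and the A-498 knockdown libraries were also above the 786-O control. All 4 knockdown libraries lay above both controls in 2.83% of all genes tested, a share from which nothing is read here because HSD17B10 was chosen on this contrast.

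In 786-O the ratio of HSD17B10 to its control was 2.43 for hairpin 1 (95% interval from counting 2.32 to 2.54) and 2.49 for hairpin 3 (interval 2.38 to 2.60). The ratios in A-498 were 1.93 (interval 1.83 to 2.03) and 1.88 (interval 1.78 to 1.98). Such intervals hold the error of counting alone and rest on 2264 to 6760 HSD17B10 counts per library. The fitted log2 fold change was 1.11 for knockdown against control (SE 0.157), 1.11 for hairpin 1 (SE 0.142) and 1.11 for hairpin 3 (SE 0.142). Since the gene was chosen on this contrast, the values are a description and no test is given. Of all genes tested, 12.8% were likewise higher than the control in all 4 knockdown libraries.

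**Figure D1:**
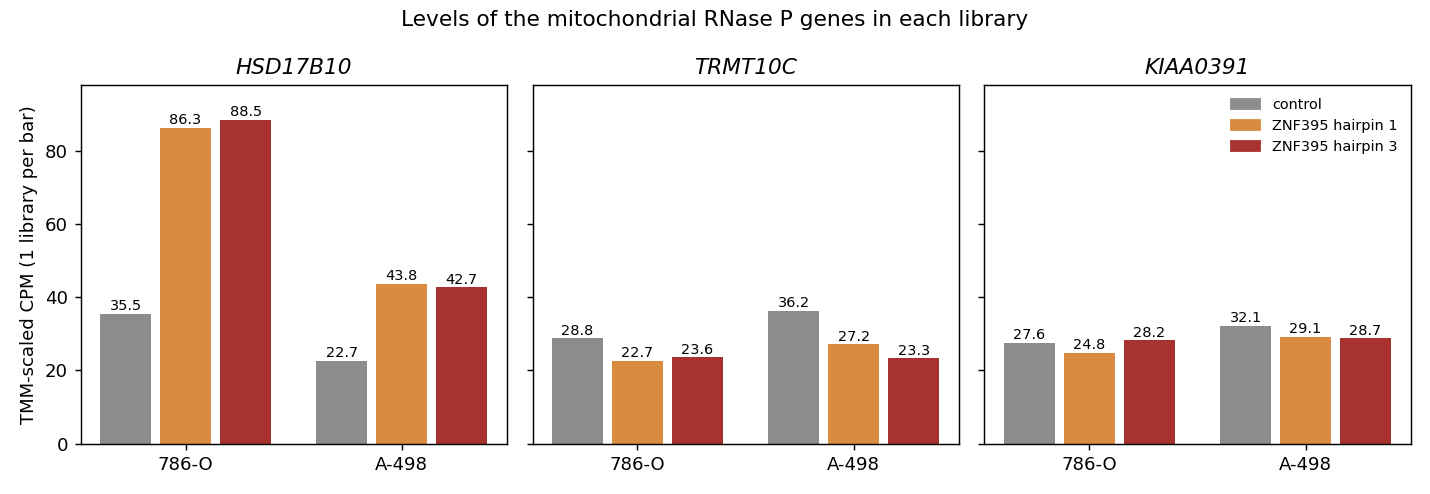
Levels of HSD17B10, TRMT10C and KIAA0391 in CPM (vertical axis) by line and construct, with colours for control, hairpin 1 and hairpin 3 and 1 library per bar and therefore without error bars. HSD17B10 runs from 22.7 to 88.5 CPM with both controls lowest, TRMT10C from 22.7 to 36.2 CPM with the control highest in each line, and KIAA0391 from 24.8 to 32.1 CPM.

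By the smallest of its 4 log2 ratios (0.91), HSD17B10 was at rank 8 among the 11027 genes that averaged 5 CPM or more. The rank is a description, since HSD17B10 was chosen on these ratios. Just above it were GFPT2 (1.00), PTGER4 (0.99) and IL7R (0.94), and just below it CXCL2 (0.90), TRAF1 (0.89) and ANK2 (0.88). In the authors' deposited table, whose sign sets control over knockdown, the log2 fold change of HSD17B10 is -0.99 (SE 0.172, adjusted p = 1.79e-05), at rank 9 by p-value. Those values come from the same libraries and contrast, so this p-value is no independent test of HSD17B10. On that contrast edgeR called 0 of the 20144 genes tested. Even ZNF395, the gene knocked down, was not called there (log2 fold change -2.29, SE 0.235, adjusted p = 0.358 in edgeR). A missing knockdown call in edgeR therefore does not show that a gene was unchanged.

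Comparisons other than knockdown against control were tested, on the same libraries from which HSD17B10 was chosen. That choice required a level above the control with each hairpin in each line. The tests between the hairpins and between the responses of the lines are therefore not independent of it. A lack of difference in them is no separate support for the higher level of HSD17B10. Between the hairpins its difference was close to 0: hairpin 3 differed from hairpin 1 by 0.00 on the log2 scale (SE 0.140, 95% interval -0.33 to 0.33, adjusted p = 0.997 in edgeR's quasi-likelihood test). Of the 20144 genes, 1910 (9.48%) were called between the hairpins, so HSD17B10 was with the majority that were not. ZNF395 itself was not called either (-0.44, SE 0.205, adjusted p = 0.217). HSD17B10 was lower in A-498 than in 786-O (log2 difference -0.89, SE 0.142, 95% interval -1.23 to -0.56, adjusted p = 0.00290), lower in all 3 matched constructs, in a comparison that called 47.2% of all genes. The knockdown response was not shown to differ between the lines (A-498 minus 786-O -0.37 on the log2 scale, SE 0.352, 95% interval -1.23 to 0.49, adjusted p = 1.00). That difference was called for 0% of genes in edgeR, with 159 at an unadjusted p under 0.05 and 0 calls in DESeq2 and in limma-voom.

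TRMT10C, the methyltransferase that carries HSD17B10 in the complex, stood on the other side of its controls. The 786-O control had 28.8 CPM of it, against 22.7 CPM for hairpin 1 and 23.6 CPM for hairpin 3. The A-498 values were 36.2, 27.2 and 23.3 CPM in the same order. Both controls were above all 4 knockdown libraries, so the groups did not overlap, which held in this direction for 2.56% of all genes tested.

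The ratios of TRMT10C to its control were 0.789 and 0.819 in 786-O and 0.750 and 0.643 in A-498, for hairpins 1 and 3. A level under the control in all 4 libraries was seen in 14% of all genes tested. The log2 fold change for knockdown was -0.42 (SE 0.150, 95% interval -0.78 to -0.06), with an unadjusted p of 0.0279 and an adjusted p = 0.939 in edgeR. TRMT10C therefore did not pass the test, and neither did any other gene: 0% were called, with 1013 genes at an unadjusted p under 0.05, 85 calls in DESeq2 and 1 in limma-voom. In the authors' deposited table TRMT10C has a log2 value of 0.38 for control over knockdown (SE 0.171, adjusted p = 0.650).

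Split by hairpin, the log2 fold change of TRMT10C was -0.38 for hairpin 1 (adjusted p = 0.418, SE 0.143) and, for hairpin 3, -0.46 (adjusted p = 0.103, SE 0.143). Hairpin 1 called 0.149% of all genes and hairpin 3 called 6.71%. Without the 786-O hairpin 3 library, the TRMT10C value for hairpin 3 was -0.5963 and passed the threshold (adjusted p = 0.0410 in edgeR). That fit has 1 library with hairpin 3, assumed to vary like the others, and it called 2337 genes in place of 1351. The hairpins did not differ significantly (-0.08, SE 0.143, 95% interval -0.42 to 0.26, adjusted p = 0.757), nor did the lines (A-498 minus 786-O 0.19, 95% interval -0.15 to 0.54, adjusted p = 0.303), nor the responses of the lines (-0.21, 95% interval -1.15 to 0.74, adjusted p = 1.00).

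KIAA0391, the nuclease, kept the narrowest range of the 3 genes. In 786-O its level was 27.6 CPM in the control library and 24.8 and 28.2 CPM for hairpins 1 and 3. In A-498 its level was 32.1 CPM in the control library and 29.1 and 28.7 CPM for the hairpins. The 786-O hairpin 3 library was slightly above its control (ratio 1.02), and the other 3 knockdown libraries were below theirs (0.897, 0.906 and 0.894).

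The log2 fold change of KIAA0391 for knockdown was -0.11 (SE 0.143, 95% interval -0.45 to 0.23, adjusted p = 0.965). For hairpin 1 the value was -0.15 (adjusted p = 0.764), and for hairpin 3 it was -0.07 (adjusted p = 0.800). Neither hairpin 3 against hairpin 1 (0.08, adjusted p = 0.719), nor A-498 against 786-O (0.16, adjusted p = 0.372), nor the difference between the lines' responses (-0.09, adjusted p = 1.00) passed the test. The counts of this gene carry a limit of annotation: in GENCODE it shares 672 bases with PPP2R3C on the opposite strand and most of its length with a readthrough gene, AL121594.1, on its own strand. No source used here gives the strand setting of the counting, without which reads from PPP2R3C cannot be told apart from its own, and reads of the readthrough gene cannot be told apart by strand at all.

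Because HSD17B10 was higher and TRMT10C lower, the RNA ratio between these partners differed more than either gene did. Per kilobase of annotated exon (0.96 kb for HSD17B10, 1.82 kb for TRMT10C), the HSD17B10 level in the 786-O control was 2.34 times the TRMT10C level, and the ratio was 7.20 for hairpin 1 and 7.11 for hairpin 3. In A-498 these ratios were 1.19 for the control library, 3.05 for hairpin 1 and 3.47 for hairpin 3. The control of each line had the lowest ratio, which follows in large part from the choice of HSD17B10 for its lower level in the controls. The order of the lines was the same for each construct. These are RNA levels, and protein was not measured.

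The genes whose profile over the 6 libraries was closest to that of HSD17B10 were found by the root-mean-square difference of log2 CPM after centring each line, among the same 11027 genes. They were the AMPK-related kinase NUAK2 (difference 0.145, Pearson r 0.962 over 6 libraries), the dynein light chain DYNLRB1 (0.146, r 0.991), the activin subunit INHBA (0.149, r 0.969), the hexosamine pathway enzyme GFPT2 (0.162, r 0.959), the prostaglandin E2 receptor PTGER4 (0.163, r 0.970) and the phosphatase DUSP16 (0.176, r 0.945). All of these profiles share the same 2 control libraries. None of the windows at their starts (2 for DYNLRB1, 1 for each other gene) held GCCGGCG (0), beside 10.1% of all RefSeq windows. With so few windows, nothing is read from this. By the same measure TRMT10C was 0.725 from HSD17B10 (r -0.865) and KIAA0391 was 0.581 from it (r -0.595), both with a negative sign. HSD17B10 was chosen for its low controls, so these signs largely restate where the controls of each partner stood. For KIAA0391 the centred 786-O hairpin 3 library was above its control (0.07 against 0.04). Nothing further is read from these correlations.

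The levels behind these profiles differed widely. In 786-O, DYNLRB1 had 49.8 CPM in the control library against 135 and 134 CPM under hairpins 1 and 3, and in A-498 it had 24.2 CPM against 60.2 and 62.2 CPM, with the line order of HSD17B10. NUAK2 had 16.4 CPM against 39.3 and 34.0 CPM in 786-O, and 56.7 CPM against 121 and 88.8 CPM in A-498, so that its line order was the opposite. GFPT2 had 5.43 CPM against 10.8 and 11.8 CPM in 786-O, and 36.1 CPM against 92.2 and 91.0 CPM in A-498. These genes were picked for their likeness to HSD17B10, so no test of them is given.

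**Figure D2:**
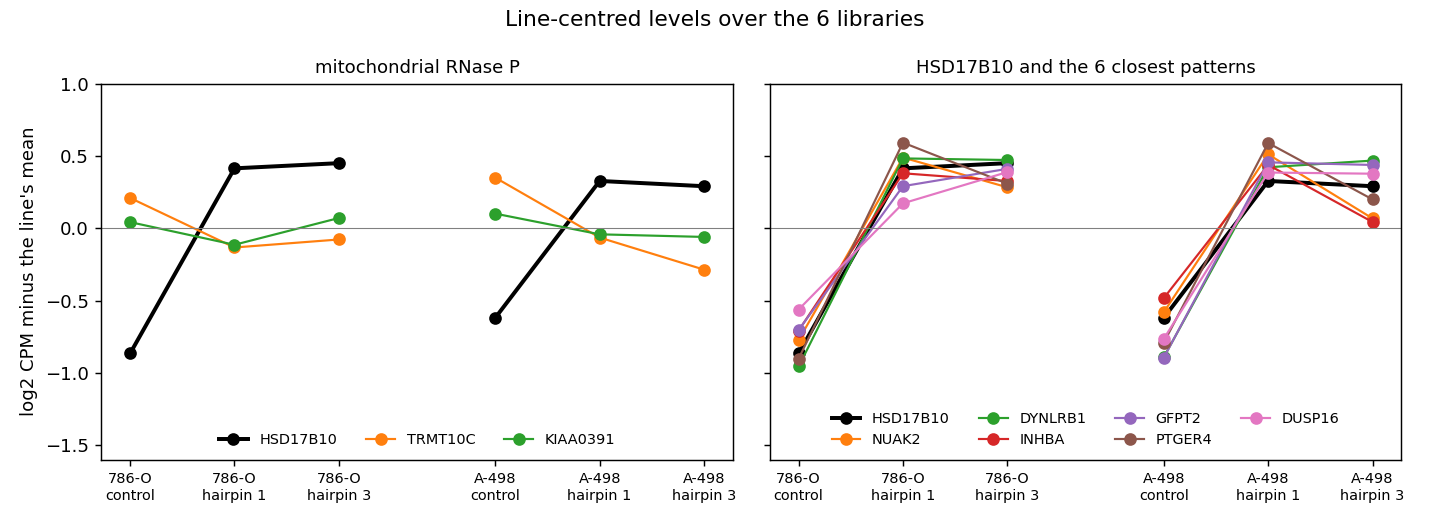
Log2 CPM minus the mean of the line (vertical axis) in each of the 6 libraries, for the RNase P genes on the left and for HSD17B10 with its 6 closest genes on the right; points of a line are joined only to guide the eye. HSD17B10 is lowest in both controls (-0.86 and -0.62), TRMT10C is highest there (0.21 and 0.35), and the 6 genes on the right are lowest in both controls.

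Of the 6 tested genes beside HSD17B10 in the genome, none reached 0.91, the lowest log2 ratio of HSD17B10 itself, in any knockdown library. MIR98, at 0 to 0.0511 CPM, was too low to be tested and is given no ratio. RIBC1, which converges on HSD17B10 from the opposite strand and ends 137 bases from it, was near the limit of detection at 0.227 to 0.649 CPM (log2 fold change for knockdown -0.50, adjusted p = 0.946). Of these 6 genes, 3 were higher than the control of their line in all 4 knockdown libraries (SMC1A, HUWE1 and PHF8), as were 12.8% of all genes tested, and 0 were lower in all 4. The cohesin gene SMC1A had the highest log2 fold change for knockdown (0.36, adjusted p = 0.939), with 203 CPM against 230 and 278 CPM in 786-O, and 146 CPM against 209 and 176 CPM in A-498. The ubiquitin ligase HUWE1 was at 0.15, the histone demethylases KDM5C and PHF8 at 0.02 and 0.04, and IQSEC2 at -0.04. None of these 6 tested neighbours was called in edgeR, which called 0 of the 20144 genes tested for knockdown. HSD17B10, at 1.11 in that fit, was chosen on this contrast, so nothing is read from the gap to its neighbours. A short noncoding gene, AC233728.1, lies inside HSD17B10 on its strand over 311 bases, and its reads could be counted with it.

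Around TRMT10C, ZBTB11 (0.35) and RPL24 (0.07) had positive log2 fold changes for knockdown, as did SENP7 (0.42) and CEP97 (0.12), while PCNP (-0.07), the nearest gene on the same strand at 7648 bases, and NFKBIZ (-0.40) had negative ones. NFKBIZ, an atypical IkB protein, fell with hairpin 3 (-0.83, adjusted p = 0.0326 in edgeR). It was 1 call among these 6 genes, where 6.71% of all genes were called with hairpin 3. That call ended without either control library or without either 786-O knockdown library. Around KIAA0391, the NF-kB inhibitor NFKBIA was higher in all 4 knockdown libraries (44.4 CPM against 70.9 and 66.5 CPM in 786-O, 55.4 CPM against 85.9 and 71.1 CPM in A-498), with a log2 fold change of 0.57 that did not pass (adjusted p = 0.925). The overlapping PPP2R3C was at 0.30 (adjusted p = 0.939), FAM177A1 at 0.14, BAZ1A at 0.11, SRP54 at -0.08 and PSMA6 at -0.06. PSMA6 had 5.16 to 6.36 CPM while the other 6 alpha proteasome subunits had 84.6 to 383 CPM, a gap seen only after looking at the values, whose cause was not tested.

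**Figure D3:**
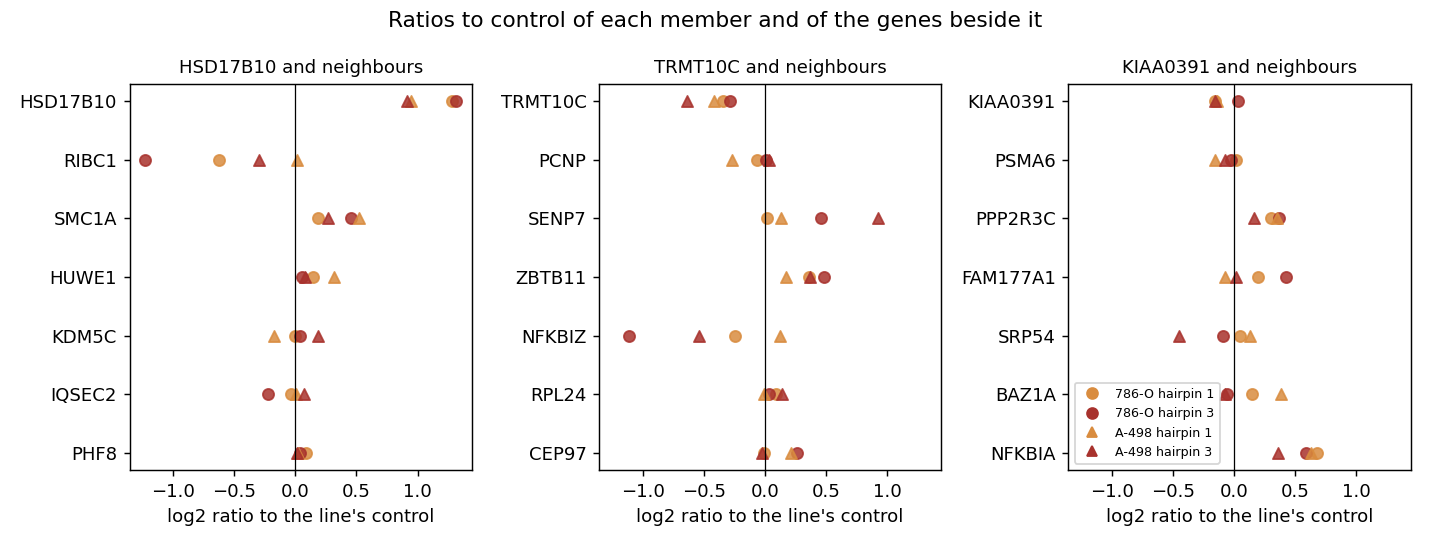
Log2 ratio of each knockdown library to the control of its line (horizontal axis) for each RNase P gene and the genes beside it, with circles for 786-O, triangles for A-498 and colours for the hairpins. The 4 HSD17B10 points lie between 0.91 and 1.32, to the right of every point of the 6 tested genes beside it. HSD17B10 was chosen on these ratios, so nothing is read from that gap.

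The RNAs that the enzyme works on were only partly visible, and like the other lists described here they had 0 knockdown calls in edgeR, DESeq2 and limma-voom. At an unadjusted p under 0.05 in edgeR were 1013 of the 20144 genes tested. In the lists of branched-chain amino acid, HSD17B and mitochondrial content genes (26, 9 and 20 tested) there was 1 such gene each. The lists of mitochondrial RNA, of its transcription and of tRNA maturation held 0. Of 22 mitochondrial tRNA genes, 2 were in the table: MT-TP at 44.9 to 54.7 CPM (log2 fold change for knockdown -0.17, adjusted p = 0.950) and MT-TF at 0.0499 to 0.278 CPM (-0.59, adjusted p = 0.950). Libraries of this kind lose most mature tRNA for its short length, and these counts do not measure tRNA cleavage. Of the 15 mitochondrial mRNAs and rRNAs, 4 had positive and 11 negative log2 fold changes (median -0.02, over all genes tested 0.00), and 0 passed the test. The extremes were MT-ND5 (0.07, adjusted p = 0.986) and the large rRNA MT-RNR2 (-0.38, adjusted p = 0.939). MT-RNR2 stood at 12926 CPM in the A-498 control against 7517 and 8419 CPM in its knockdown libraries, and at 5251, 5286 and 4906 CPM in 786-O, so that most of its difference lay in A-498.

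Genes acting on the same tRNAs after RNase P were spread around 0. Of 22 tRNA maturation genes, 13 had positive and 9 negative log2 fold changes for knockdown (median 0.04), and 0 were called. The highest was YRDC (0.32, adjusted p = 0.939), which makes the precursor of a tRNA modification, and the lowest the pseudouridine synthase TRUB2 (-0.32, adjusted p = 0.939). ELAC2, the nuclease for the 3′ end and named here for that role, was at -0.04 (SE 0.136, adjusted p = 0.991). Between the hairpins, MTO1 was higher with hairpin 3 than with hairpin 1 (0.61) and NSUN2 lower (-0.53), the 2 calls among the 22 genes, a share close to the 9.48% of all genes called, and both ended when any library other than that of hairpin 3 in 786-O was left out.

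Of 32 genes for mitochondrial transcription and RNA stability, 10 had positive and 22 negative log2 fold changes for knockdown (median -0.09), from PNPT1, a subunit of the RNA degradosome (0.51, adjusted p = 0.939), to the transcription factor TFB2M (-0.56, adjusted p = 0.944). With hairpin 3, TFB2M fell (log2 fold change -1.16, adjusted p = 0.0146 in edgeR), as did the rRNA methyltransferase NSUN4 (-0.71, adjusted p = 0.0328). These 2 of 32 are a share close to the 6.71% of all genes called with hairpin 3. TFB2M was at 31.3 CPM in the 786-O control, 28.9 CPM for hairpin 1 and 15.99 CPM for hairpin 3, and at 37.0, 33.5 and 14.5 CPM in A-498, so only the hairpin 3 libraries stood apart. Both calls ended without either control library (0 of 32). Both genes also fell from hairpin 1 to hairpin 3 (TFB2M -1.03, NSUN4 -0.76). That comparison called 9.48% of all genes and shares the hairpin 3 libraries in which both were picked as low. Neither call held without the 786-O hairpin 1 library, and not both held without that of A-498. The RNAs of 20 genes often used as markers of mitochondrial content went both ways for knockdown, and content itself was not measured: 10 had positive and 10 negative values (median 0.01), from TIMM44 (0.28) to SDHA (-0.46), and 0 were called for knockdown. With hairpin 3, TIMM44 rose (0.63, adjusted p = 0.0381), 1 call among 20 genes where 6.71% of all genes were called, and a call that ended without either control or either 786-O knockdown library.

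**Figure D4:**
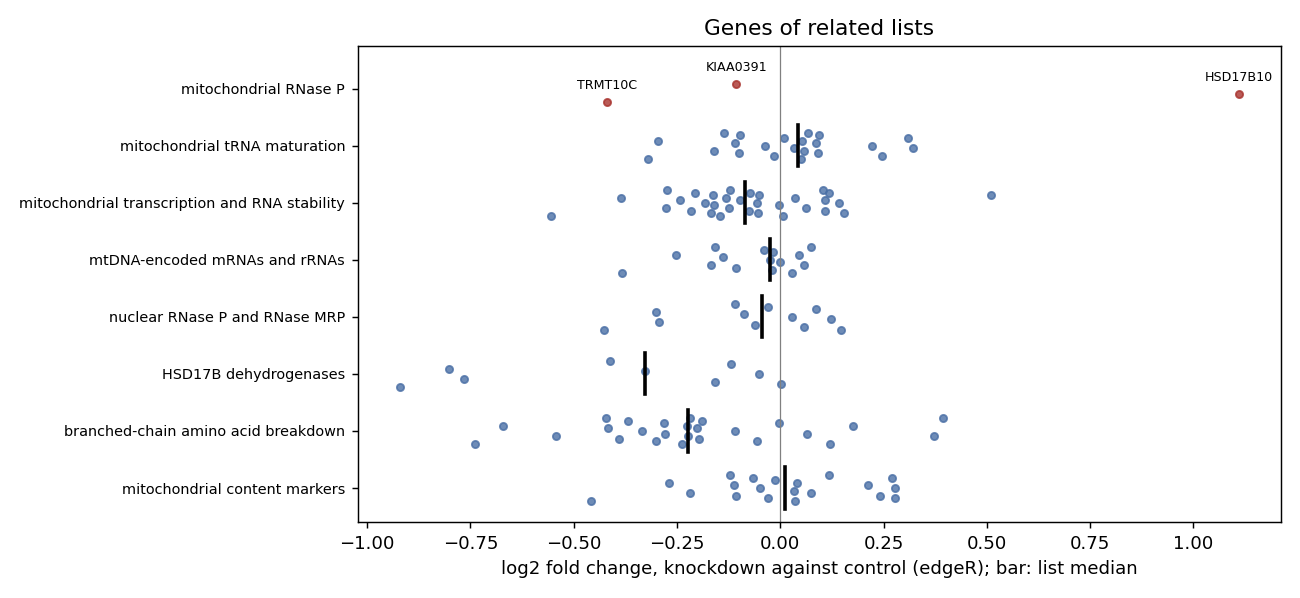
Log2 fold change for knockdown against control from edgeR (horizontal axis) of each gene in the RNase P set and in 7 related lists, with 1 point per gene and a bar at the median of the list. HSD17B10 (1.11), which was chosen on this contrast, lies to the right of every gene of the other lists. The list of branched-chain amino acid breakdown has its median at -0.22.

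In its other role, HSD17B10 oxidises an intermediate of isoleucine breakdown, and most genes of that pathway stood on the opposite side of the control. Of 26 genes for branched-chain amino acid breakdown, 5 had positive and 21 negative log2 fold changes for knockdown (median -0.22, over all genes tested 0.00). In this list 14 of 26 genes were lower than the control in all 4 knockdown libraries, beside 14% of all genes tested, and 1 was higher in all 4. None was called for knockdown (0 of 26). The extremes were the cytosolic transaminase BCAT1 (0.40, SE 0.183, adjusted p = 0.939) and ACADSB, the dehydrogenase for the branched acyl-CoA of isoleucine (-0.74, SE 0.218, adjusted p = 0.939).

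ACADSB, ECHS1, HSD17B10 and ACAT1 catalyse consecutive steps of isoleucine breakdown. ACADSB was at 27.5 CPM in the 786-O control, 23.6 CPM for hairpin 1 and 20.8 CPM for hairpin 3, and at 15.9, 7.44 and 7.07 CPM in A-498. The enoyl-CoA hydratase ECHS1 was at 128, 120 and 71.5 CPM in 786-O and at 134, 110 and 57.8 CPM in A-498. The thiolase ACAT1, named for its place after HSD17B10 with its values known, was at 105, 101 and 90.7 CPM in 786-O and at 44.1, 36.6 and 36.4 CPM in A-498 (log2 fold change -0.20, adjusted p = 0.946). In each line the control was highest for these 3 genes and lowest for HSD17B10. A level under the control in all 4 knockdown libraries was seen in 14% of all genes tested. HSD17B10 was chosen for its low controls, and the 3 genes were named from their values or with them known. Nothing is therefore read from this opposition.

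With hairpin 3 alone, 5 of the 26 genes fell and 0 rose in edgeR, beside 6.71% of all genes called: DBT, a subunit of the branched-chain dehydrogenase complex (-1.21, adjusted p = 0.0123), ECHS1 (-1.02, adjusted p = 0.0152), the leucine pathway carboxylase subunit MCCC2 (-0.62, adjusted p = 0.0310), and the cobalamin enzymes MMAB (-0.77, adjusted p = 0.0386) and MMAA (-0.79, adjusted p = 0.0441). Without the A-498 control library 0 of the 26 were called, and without the 786-O control library 2 were. Over all genes these settings left 121 and 235 calls of 1351. All 5 fell from hairpin 1 to hairpin 3, by 0.72 (MCCC2) to 1.02 (MMAA) on the log2 scale. That comparison called 9.48% of all genes and shares the hairpin 3 libraries in which these 5 were picked as low, so it is no separate support. Without the 786-O hairpin 1 library 0 of the 26 passed that comparison, and without the A-498 hairpin 1 library 3 did. For hairpin 1 against control, 0 of the 26 were called in edgeR, beside 0.149% of all genes. At an unadjusted p under 0.05 were 2 of the 26, beside 2106 of the 20144 genes tested. In DESeq2, which called 448 genes in all, 1 of the 26 fell.

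The other dehydrogenases of the HSD17B family are named for a shared activity on steroids. Of 9 that were tested, 1 had a positive and 8 a negative log2 fold change for knockdown (median -0.33), from HSD17B1 (0.00, slightly negative with DESeq2's size factors, with its test and without the filter) to HSD17B3 (-0.92, with at most 1.85 CPM), and 0 were called. With hairpin 3, 3 fell in edgeR, beside 6.71% of all genes called: the peroxisomal HSD17B4 (-0.59, adjusted p = 0.0438), HSD17B11 (-0.71, adjusted p = 0.0463) and HSD17B8 (-1.01, adjusted p = 0.0498, with 0.786 to 4.16 CPM), and 0 did without either control library and 1 without the 786-O hairpin 1 library. Between the lines, 7 of the 9 were higher in A-498 in edgeR and 0 lower, in a comparison that called 5182 of 20144 genes higher and 4319 lower (47.2% in all) and HSD17B10 among the lower ones.

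The nuclear RNase P and RNase MRP, RNA-based enzymes with no subunit in common with the mitochondrial one, had 12 of 13 genes tested, 5 with positive and 7 with negative log2 fold changes for knockdown (median -0.05) and 0 called. The extremes were RPP25 (0.15, adjusted p = 0.966) and the RNA component RMRP (-0.43, adjusted p = 0.958, at 0.0766 to 0.160 CPM). The paralogs of TRMT10C that methylate tRNAs outside mitochondria were at 0.10 (TRMT10B, adjusted p = 0.971) and -0.19 (TRMT10A, adjusted p = 0.952), against -0.42 for TRMT10C.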

How the data were processed

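Total RNA of the 6 libraries was made into stranded TruSeq libraries, per the labels' protocols. The authors deposited 1 table of whole-number read counts per gene symbol without normalization. STAR, DESeq2, hg19 and hs37d5 are named in the submitters' processing notes, and no source used here gives the counting tool, annotation or strand setting. In the same table the authors deposited a mean normalized signal and, per the file headers, DESeq2's log2 fold change, its error, the Wald score, and the p-value before and after adjustment.

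The counts entered edgeR 4.0.16 (R 4.3.3) with TMM scaling, filterByExpr over knockdown status, quasi-likelihood F tests, and Benjamini-Hochberg adjustment over 20144 genes, with a call at an adjusted p under 0.05. Knockdown and line effects were fitted with terms for line and knockdown (residual df 3), hairpin effects with terms for line and construct (residual df 2, lines serving as replicates), and the difference between the lines' responses with 4 means (residual df 2). The members and the 13 lists were chosen with earlier results of these data known, so list counts are descriptions. The names given are the members, their neighbours, up to 4 called genes per direction of each list or otherwise its extremes, and the 6 closest profiles; MMAA, ELAC2 and ACAT1 were added after their values were seen. Log-CPM used a prior count of 2. Positions and exon lengths came from GENCODE on GRCh38, since the table holds no coordinates. The replicate number of a label is its hairpin number, so libraries with the same number received the same reagent, and over genes the difference between the hairpins in one line correlated with that in the other (r 0.577). Alternatives were DESeq2 1.42.0 (size factors, Wald test), limma-voom (3.58.1), no filter, a hairpin block, and leaving out each library. The scripts were tested on simulated counts.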

Additional observations from a re-analysis of the deposited data

Results flagged for a closer look

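IQSEC2, a gene near HSD17B10 on the X chromosome, had ratios to control on opposite sides in the 2 lines: log2 ratios of -0.04 and -0.22 in 786-O and 0.01 and 0.07 in A-498, for hairpins 1 and 3. The difference of the responses was 0.1686 (SE 0.395, adjusted p = 1.00 in edgeR), so the test of the difference itself did not pass.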

How the results depend on the processing

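Of 183 alternative values for the members, 172 kept their direction and, where a test was made, their side of the threshold. With the hairpin number as a replicate block, the knockdown value of TRMT10C was -0.42 (adjusted p = 0.174 in edgeR) and that of KIAA0391 -0.11 (adjusted p = 0.705), and no call on a member changed. The hairpin 3 minus hairpin 1 difference of HSD17B10, close to 0, reversed with DESeq2's test (-0.0057), its size factors (-0.0044), limma-voom (-0.0003) and no filter (-0.0045), and ran from -0.0977 to 0.1033 when single libraries were left out. Leaving out single libraries, TRMT10C ran from -0.2156 to 0.0605 for hairpin 3 minus hairpin 1 and from -0.5963 to -0.3220 for hairpin 3, where it passed without the 786-O hairpin 3 library. KIAA0391 ran from -0.1423 to 0.0150 for hairpin 3 and from -0.1338 to 0.0230 for the difference between the lines' responses, which could not be fitted without a control library.

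Counts of genes called moved more. For knockdown, 0 in edgeR became 85 with DESeq2, 1 with limma-voom and 26 with the replicate block. For hairpin 1 the count was 478 without the filter and 448 with DESeq2 (0 to 608 with a library left out). For hairpin 3 it was 2654 and 2599 (121 to 2337), for hairpin 3 minus hairpin 1 it was 3117 and 2956 (249 to 3312), and for the lines it was 5581 to 8587 with a library left out, against 9501 with all 6. The knockdown values of some small differences changed sign with a library left out: KDM5C (-0.0723 to 0.0901), IQSEC2 (-0.1500 to 0.0563), FAM177A1 (-0.0169 to 0.2910), SRP54 (-0.2071 to 0.0340), BAZ1A (-0.0069 to 0.1855), TRMT10B (-0.0464 to 0.2506), MT-ND5 (-0.0484 to 0.1780) and HSD17B1 (-0.2858 to 0.2787). HSD17B1 was also at -0.0017 with DESeq2's size factors, -0.0019 without the filter, -0.0024 in DESeq2 and -0.0338 with the block. The cause of these changes was not tested. Each comparison is limited by having 1 library per line and construct.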
